A study of Mus musculus with 16 samples.

Results

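The aryl hydrocarbon receptor pathway was followed through 6 genes, the receptor Ahr, its partner Arnt, the repressor Ahrr and the transcriptional targets Tiparp, Cyp1a1 and Cyp1b1. They were taken by gene symbol and not by a cut on their values, though with earlier results of these data known. They are 6 of the 24091 genes of the deposited expression table. RNA came from the epithelium of the caecum of C57BL/6 mice, the cell layer that faces the gut microbiota. The 9 RNA libraries form 3 groups of 3. The ampicillin with tributyrin mice drank water with ampicillin at 1 g/L for 7 days and were gavaged with tributyrin, a glycerol ester that releases butyrate. The ampicillin with mock mice had the same water and a mock gavage of 25% glycerol. The vehicle with mock mice had the mock gavage and water without ampicillin. All 3 groups, the vehicle group included, drank Splenda at 10 g/L, and cells were taken 6 h after gavage. The labels do not say whether the libraries of a group come from separate animals, so the p-values measure the spread between these libraries, which may be technical. The cells were released from the tissue with chelating and reducing agents and an enzyme, the labels describe no sort, and chromatin libraries of the same series are not analysed here.

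The aryl hydrocarbon receptor is a ligand-activated transcription factor of the bHLH-PAS family. Without ligand it is held in the cytoplasm by a chaperone complex that includes HSP90 and the co-chaperone p23. Ligands, among them tryptophan metabolites made by gut bacteria and dietary indoles, move it to the nucleus, where it pairs with ARNT and binds xenobiotic response elements with the core GCGTG. In the intestine the receptor is known for its part in epithelial barrier upkeep and in lymphocytes that make IL-22. CYP1A1 and CYP1B1 are monooxygenases that clear many of its ligands, AHRR competes with it for ARNT, and TIPARP is an ADP-ribosyltransferase that modifies the receptor and lowers its activity.

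The promoters of the 4 target and feedback genes are shown because the receptor is known to act on these genes through such elements. Each window has 300 bases, from 250 before to 50 after the start site that the promoter table gives, on the strand of the gene, and comes from RefSeq on build GRCm38.p6. Capitals mark the core, read as GCGTG on the strand of the gene or as CACGC where it lies on the opposite strand. The windows are chr13:74292282-74292581, minus strand, for Ahrr, chr3:65528197-65528496, plus strand, for Tiparp, chr9:57697363-57697662, plus strand, for Cyp1a1, and chr17:79715012-79715311, minus strand, for Cyp1b1. For Cyp1a1, and for Arnt, the annotated span of the gene begins upstream of that start site.
Ahrr: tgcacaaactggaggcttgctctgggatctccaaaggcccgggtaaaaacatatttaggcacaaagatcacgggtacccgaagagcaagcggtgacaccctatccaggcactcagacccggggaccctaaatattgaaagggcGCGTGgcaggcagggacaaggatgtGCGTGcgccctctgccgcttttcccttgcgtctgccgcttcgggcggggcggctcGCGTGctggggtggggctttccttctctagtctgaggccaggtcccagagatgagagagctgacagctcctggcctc
Tiparp: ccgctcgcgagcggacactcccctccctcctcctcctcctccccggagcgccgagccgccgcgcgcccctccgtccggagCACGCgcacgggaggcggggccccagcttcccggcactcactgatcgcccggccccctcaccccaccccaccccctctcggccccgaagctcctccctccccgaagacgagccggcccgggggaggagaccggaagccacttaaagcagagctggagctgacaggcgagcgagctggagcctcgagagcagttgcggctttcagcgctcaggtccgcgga
Cyp1a1: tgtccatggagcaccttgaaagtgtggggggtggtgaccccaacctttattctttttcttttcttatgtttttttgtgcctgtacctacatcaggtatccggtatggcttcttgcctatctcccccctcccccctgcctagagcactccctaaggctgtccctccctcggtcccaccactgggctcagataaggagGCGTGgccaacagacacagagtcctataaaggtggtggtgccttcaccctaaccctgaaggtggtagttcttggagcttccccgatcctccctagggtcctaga
Cyp1b1: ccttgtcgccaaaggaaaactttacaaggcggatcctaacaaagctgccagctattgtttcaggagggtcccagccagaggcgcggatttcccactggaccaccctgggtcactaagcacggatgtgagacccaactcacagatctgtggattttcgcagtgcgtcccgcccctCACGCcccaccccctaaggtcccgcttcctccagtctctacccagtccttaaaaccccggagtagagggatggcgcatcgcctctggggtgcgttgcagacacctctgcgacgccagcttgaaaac

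The Ahrr window held 3 copies of the core, all on the strand of the gene, with their first bases at -107, -82 and -27 from that start site. The copy nearest the start lay in the longer form TNGCGTG, which starts at -29. On the opposite strand this longer form was searched as CACGCNA, and it contains the core. Cyp1a1 held 1 copy at -54 on the strand of the gene. Tiparp and Cyp1b1 held 1 copy each on the opposite strand, at -170 and -76. The Arnt window, chr3:95434140-95434439 on the plus strand, held 1 copy at -29. Ahr had no entry in the promoter table, so no window of it was searched. No copies overlapped each other. Over all 32851 RefSeq windows of this length, 32.4% held at least 1 core on either strand, 3.91% held 3 or more and 5.07% held the longer form, so a single core is common in promoters. These matches are letters in a window and are not evidence of binding.

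**Figure D1:**
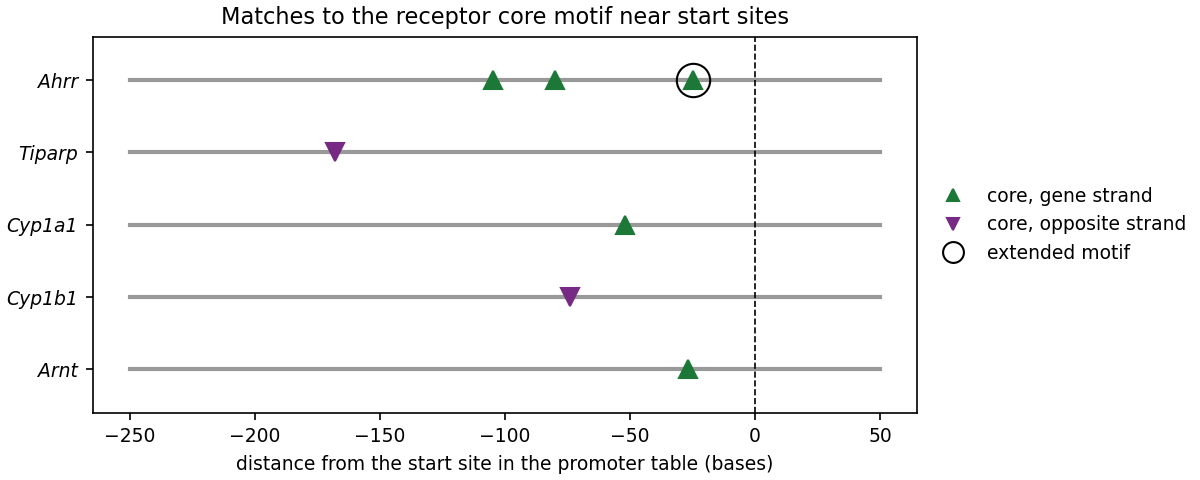
Positions of the receptor's core motif in the promoter windows of Ahrr, Tiparp, Cyp1a1, Cyp1b1 and Arnt, with distance from the start site of the promoter table in bases on the horizontal axis. Upward green triangles are cores on the strand of the gene, downward purple triangles are cores on the opposite strand, and the open circle is the longer form. Ahrr carries 3 cores and the others 1 each.

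The receptor was present at a low level in the caecal epithelium, its partner at a higher one, and the classical target enzymes were at or near 0. Values are TPM (transcript abundances scaled to a common total), which are divided by transcript length and can therefore be compared between genes. Over the 9 libraries Arnt averaged 12.3 TPM, Tiparp 5.97 TPM, Ahr 3.79 TPM and Ahrr 0.242 TPM. The ranges of Arnt, Tiparp, Ahr and Ahrr over the 9 libraries overlapped only between Tiparp and Ahr. Among all genes of the table, 70.9% had a lower mean than Arnt, 62.6% a lower mean than Tiparp, 58.4% a lower mean than Ahr and 41.6% a lower mean than Ahrr. These shares count as lower the 4439 genes that were listed at 0 in all 9 libraries.

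Ahr (gene ID 11622, chromosome 12, 35497979 to 35534989 on GRCm38.p6) had 4.11, 4.59 and 3.93 TPM in the ampicillin with tributyrin libraries. It had 3.62, 3.94 and 4.25 TPM in the ampicillin with mock libraries and 3.23, 3.33 and 3.09 TPM in the vehicle libraries. Every ampicillin library, with or without tributyrin, lay above the 3 vehicle libraries, and the 2 ampicillin groups overlapped. The group means were 4.21 ± 0.339 TPM with ampicillin and tributyrin, 3.94 ± 0.311 TPM with ampicillin and mock, and 3.22 ± 0.121 TPM with vehicle (SD, n = 3 each).

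Arnt (gene ID 11863, chromosome 3, 95434367 to 95497240), which also pairs with the hypoxia-inducible factors, had 12.6, 13.1 and 11.6 TPM with ampicillin and tributyrin, 12.1, 12.5 and 12.1 TPM with ampicillin and mock, and 11.3, 13.3 and 12.1 TPM with vehicle. The 3 groups overlapped, and the vehicle libraries held both the lowest and the highest value. The means were 12.4 ± 0.782, 12.2 ± 0.226 and 12.2 ± 1.01 TPM in that order (SD, n = 3 each).

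Ahrr (gene ID 11624, chromosome 13, 74211118 to 74292331) had 0.268, 0.422 and 0.338 TPM in the ampicillin with tributyrin libraries, 0.199, 0.277 and 0.167 TPM in the ampicillin with mock libraries, and 0.174, 0.182 and 0.155 TPM in the vehicle libraries. The tributyrin libraries all lay above the vehicle libraries, while the second ampicillin with mock library reached into the tributyrin range. The means were 0.343 ± 0.0769 TPM with ampicillin and tributyrin, 0.214 ± 0.0565 TPM with ampicillin and mock, and 0.170 ± 0.0141 TPM with vehicle (SD, n = 3 each). In the tributyrin libraries only 20.7% to 24.7% of the genes listed above 0 were lower than Ahrr.

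Tiparp (gene ID 99929, chromosome 3, 65528447 to 65555518) had 6.37, 6.81 and 6.13 TPM with ampicillin and tributyrin, 6.13, 6.61 and 6.31 TPM with ampicillin and mock, and 5.11, 5.83 and 4.43 TPM with vehicle. Both ampicillin groups lay above all 3 vehicle libraries and overlapped each other. The means were 6.44 ± 0.344 TPM with ampicillin and tributyrin, 6.35 ± 0.242 TPM with ampicillin and mock, and 5.12 ± 0.700 TPM with vehicle (SD, n = 3 each), and the vehicle libraries were the most spread. Tiparp overlaps the annotated gene 4931440P22Rik, and the strand setting of the counting is not given in the sources used here, so reads from this pair may not be told apart.

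Cyp1a1 (gene ID 13076, chromosome 9, 57687928 to 57703824), the textbook readout of an active receptor, was listed at 0.0153, 0.0120 and 0.0156 TPM in the 3 ampicillin with tributyrin libraries and at 0 in the 3 ampicillin with mock and the 3 vehicle libraries. The values above 0 were among the lowest in those libraries, with only 1.79% to 2.07% of the genes listed above 0 lying lower. Genes listed above 0 numbered 17516, 17722 and 17315 with tributyrin, 17242, 17337 and 17513 with ampicillin and mock, and 17283, 17253 and 17316 with vehicle. Genes at 1 TPM or more numbered 12148, 12239 and 12009 with tributyrin, against 11746 to 11955 in the other libraries. The part of this difference in the Cyp1a1 values was not tested. Cyp1b1 (gene ID 13078, chromosome 17, 79706940 to 79715061) was listed at 0 in 8 libraries and at 0.0104 TPM in the first ampicillin with mock library. The liver enzyme Cyp1a2 was listed at 0 in 8 libraries and at 0.0174 TPM in the second tributyrin library. None of 20 housekeeping genes was listed at 0 in any library, but 63 of 7603 genes that averaged at least 10 TPM were listed at 0 in some library, so a listed 0 need not mean absence.

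**Figure D2:**
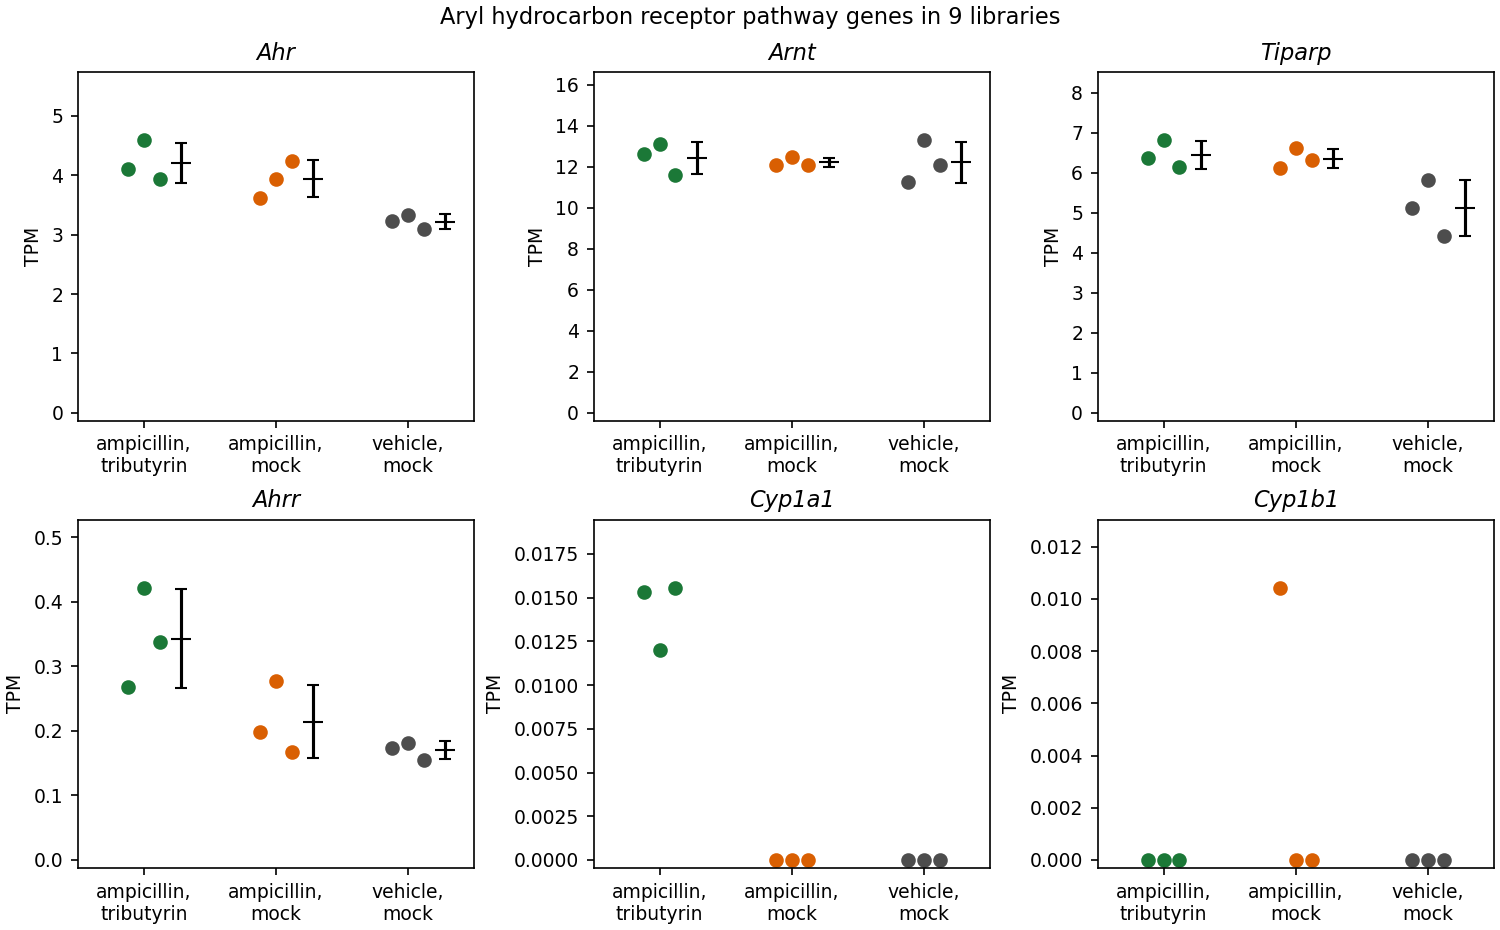
TPM of the 6 genes in each of the 9 libraries (vertical axis from 0, its scale set for each gene), with groups from left to right ampicillin with tributyrin, ampicillin with mock, and vehicle with mock. Points are libraries; black bars are the mean ± SD (n = 3) of the genes that were not mostly at 0. Ahr and Tiparp sit higher in both ampicillin groups than in vehicle, Arnt is level, and Cyp1a1 is above 0 in the tributyrin libraries alone, at no more than 0.0156 TPM.

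Ampicillin was set against vehicle, both with mock gavage, to ask what the antibiotic did to the pathway. Ahr and Tiparp were higher in all 3 ampicillin libraries than in all 3 vehicle libraries, but neither passed the test after correction. Tests were made with limma on log2(TPM + 1) for the 12155 genes that averaged at least 1 TPM, with Benjamini-Hochberg adjustment, and a gene was called at an adjusted p under 0.05. Fold changes on this scale understate the change of low genes. Of the 6 genes, 3 passed the filter on mean TPM, and 0 of these 3 were called, against 21.3% of all genes tested (11.0% higher and 10.2% lower). At an unadjusted p under 0.05 the count was 2, against 34.0% of all genes. For Ahr the log2 fold change was 0.23 ± 0.077 (SE; 95% interval 0.05 to 0.40; limma adjusted p = 0.0734). For Tiparp it was 0.27 ± 0.087 (SE; 95% interval 0.07 to 0.47; limma adjusted p = 0.0606), and without vehicle library 2 it passed (log2 fold change 0.35, limma adjusted p = 0.0204). Groups did not overlap for 40.8% of all genes tested, with 22.6% higher with ampicillin, so separation alone is common here. Arnt was level, with a log2 fold change of 0.00 and a 95% interval from -0.15 to 0.16, which leaves room for only small differences in either direction.

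Tributyrin was set against mock gavage among the ampicillin libraries to ask what the butyrate source did once ampicillin was given. Neither the receptor nor its partner nor Tiparp passed the test. The log2 fold change was 0.08 for Ahr (95% interval -0.10 to 0.25; limma adjusted p = 0.509), 0.02 for Arnt (95% interval -0.13 to 0.18; limma adjusted p = 0.846) and 0.02 for Tiparp (95% interval -0.18 to 0.22; limma adjusted p = 0.916). Of the 3 genes tested 0 were called, against 23.2% of all genes tested, and 0 had an unadjusted p under 0.05, against 37.7% of all genes. Ahrr averaged 1.60-fold more TPM with tributyrin than with mock, which the exact two-sided permutation test did not separate (p = 0.2, with 0.1 the smallest p that 3 against 3 libraries allow). Cyp1a1 was above 0 in all 3 tributyrin libraries and in none of the 3 mock libraries, which gives the smallest exact permutation p of 0.1. Groups did not overlap for 42.6% of all genes tested in this comparison, with 27.3% higher with tributyrin. Ahrr and Cyp1a1 were under the filter and are not among those genes, and no such share was computed for genes as low as these. With no filter on low values, limma gave an adjusted p of 0.0795 for Ahrr and 0.197 for Cyp1a1, in a fit that called 15.2% of genes.

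Ampicillin with tributyrin was set against vehicle to compare both treatments together with neither. Ahr and Tiparp rose. Of the 3 genes tested 2 were called, both higher, against 28.3% of all genes called in either direction, with 19.1% called higher and 9.21% lower. Neither gene overlapped between the groups, nor did 41.7% of all genes tested, with 28.5% higher. The mean of Ahr was 1.31-fold that of vehicle, with a log2 fold change of 0.30 ± 0.077 (SE; 95% interval 0.13 to 0.48; limma adjusted p = 0.0213). The mean of Tiparp was 1.26-fold that of vehicle, with a log2 fold change of 0.29 ± 0.087 (SE; 95% interval 0.09 to 0.49; limma adjusted p = 0.0401). Both calls were close to the threshold. Under quantile normalization the adjusted p was 0.0626 for Ahr and 0.122 for Tiparp, and neither was called. With 1 library left out, the Ahr call was lost without vehicle library 1, vehicle library 3 or tributyrin library 2 (adjusted p = 0.0535, 0.0700 and 0.0763 in limma), and the Tiparp call held only without vehicle library 2 or tributyrin library 3. Arnt did not pass, with a log2 fold change of 0.03 (95% interval -0.13 to 0.18; limma adjusted p = 0.807). Ahrr averaged 2.01-fold more TPM in these libraries than in vehicle, without overlap (exact permutation p = 0.1, the smallest possible), and with no filter on low values limma gave it an adjusted p of 0.0256 in a fit that called 18.5% of genes. The 3 comparisons share libraries and so are not independent of one another, and a call in one with none in another does not show that they differ.

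**Figure D3:**
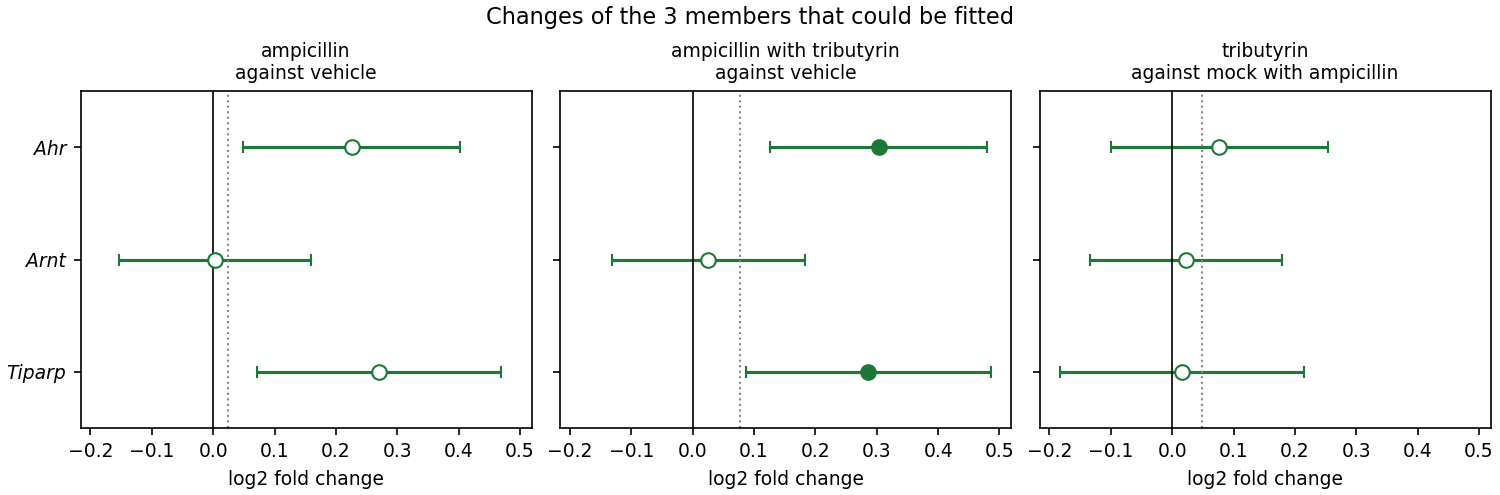
Log2 fold changes of Ahr, Arnt and Tiparp with 95% intervals in the 3 comparisons, from limma on log2(TPM + 1); filled points passed an adjusted p of 0.05, and the dotted line is the median of all genes tested. Ahr and Tiparp lie at 0.23 and 0.27 for ampicillin, at 0.30 and 0.29 for ampicillin with tributyrin, and at 0.08 and 0.02 for tributyrin against mock, while Arnt stays within 0.03 of 0.

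Markers of the epithelium dominated all libraries. The summed TPM of 8 epithelial markers ran from 11478 to 12374 with ampicillin and tributyrin, from 10160 to 10526 with ampicillin and mock, and from 12722 to 14511 with vehicle. Lymphocytes also use Ahr and Ahrr, and 11 of 12 listed T cell and innate lymphocyte markers were in the table, none at 0 throughout. Their sum ran from 33.3 to 54.5 TPM with ampicillin and tributyrin, from 21.7 to 34.0 TPM with ampicillin and mock, and from 23.7 to 28.5 TPM with vehicle. Among them Gzma, a granule protease of cytotoxic cells, averaged 3.82 ± 0.980 TPM with tributyrin and 0.468 ± 0.274 TPM with mock (SD, n = 3 each; log2 fold change 1.72, limma adjusted p = 0.00261). Myeloid markers summed to between 4.56 and 5.74 TPM, between 3.67 and 6.34 TPM, and between 3.48 and 3.92 TPM in the same order of groups, with 2 of 7 averaging at least 1 TPM. For 5 of 6 listed B and plasma cell markers the sums ran from 1.29 to 2.08, from 0.962 to 1.46 and from 0.455 to 0.645 TPM in that order. For 9 fibroblast and smooth muscle markers they ran from 0.420 to 0.480, from 0.368 to 0.523 and from 0.334 to 0.398 TPM. For 6 endothelial markers they ran from 1.76 to 2.27, from 0.887 to 1.05 and from 3.88 to 4.49 TPM, with Cdh5 listed at 0 in 8 libraries and Emcn in 7, and Pecam1, which leukocytes also carry, made up most of the sum at a mean of 1.38, 0.586 and 3.79 TPM. For 4 of 6 listed erythroid markers they ran from 94.4 to 134, from 13.4 to 36.6 and from 8.35 to 25.4 TPM. The part of these markers in the values of Ahr and Ahrr was not tested, and in bulk RNA more cells of a type and more RNA per cell cannot be told apart.

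Over the 9 libraries the profile of Ahr was closest to those of Setd7, a lysine methyltransferase (Pearson r = 0.98 of log2(TPM + 1)), Naca, a chaperone of nascent chains (r = 0.98), and Uhrf1bp1l (r = 0.98). Arnt was closest to the poly(A) polymerase Papola (r = 0.95), the membrane mucin Muc13 (r = 0.95) and the antiviral zinc finger gene Zc3hav1 (r = 0.95). Tiparp was closest to Zfp658 (r = 0.97), the EGF receptor inhibitor Errfi1 (r = 0.97) and the epithelial ETS factor Ehf (r = 0.97). Ahr and Tiparp correlated at r = 0.88, Arnt and Tiparp at r = 0.44, and Ahr and Arnt at r = 0.33. These values describe 9 libraries that share 3 treatments and rank many genes, and they carry no test.

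Both HSP90 genes and the p23 gene rose with tributyrin against mock. They belong to a list of 7 genes, all tested, that held 4 chaperone and co-chaperone genes, the kinase Src, and the ubiquitin ligase subunits Cul4b and Ddb1, which are tied to turnover by the receptor and are not chaperones. Of the 7, the 4 chaperone and co-chaperone genes rose and 0 fell, where 15.6% of all genes rose and 7.54% fell. The median log2 fold change of the 7 was 0.15, against 0.05 for all genes tested. Hsp90aa1, the stress-inducible HSP90, had 356, 360 and 340 TPM with ampicillin and tributyrin, 201, 198 and 223 TPM with ampicillin and mock, and 193, 197 and 190 TPM with vehicle. All 3 tributyrin libraries stood far above the other 6, which lay close together. Its log2 fold change for tributyrin against mock was 0.76 ± 0.054 (SE; limma adjusted p = 0.000317). Hsp90ab1, the constitutive HSP90, averaged 1167 ± 25.7 TPM with tributyrin and 947 ± 6.29 TPM with mock (SD, n = 3 each; log2 fold change 0.30, limma adjusted p = 0.00149). Ptges3, which encodes p23, averaged 131 ± 1.26 TPM with tributyrin and 99.9 ± 4.66 TPM with mock (SD, n = 3 each; log2 fold change 0.39, limma adjusted p = 0.00184). The kinase co-chaperone Cdc37 was called at a log2 fold change of 0.15 (limma adjusted p = 0.0465), a call lost whenever any 1 library was left out. Src, Cul4b and Ddb1 were not called. These chaperones serve many clients besides the receptor.

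Of the same 7 genes 0 passed for ampicillin against vehicle, against 21.3% of all genes, and 1 had an unadjusted p under 0.05 in limma, against 34.0% of all genes. The median log2 fold change was 0.02, as for all genes tested. With ampicillin and tributyrin against vehicle 4 rose and 1 fell, where 19.1% of all genes rose and 9.21% fell, with a median log2 fold change of 0.18 against 0.08 for all genes tested. The genes that rose were Hsp90aa1, Hsp90ab1, Ptges3 and Cdc37, with log2 fold changes of 0.86, 0.32, 0.35 and 0.18. The tyrosine kinase Src, which is carried in the complex, fell (log2 fold change -0.41, limma adjusted p = 0.0230). Its call held in 6 of 9 fits with 1 library left out.

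Further genes known to respond to the receptor were called in both directions. The list held 16 genes, mostly enzymes but also regulators such as Nfe2l2, Ccng2, Rnf43 and Znrf3, and 9 were tested. With ampicillin against vehicle 2 rose and 2 fell, where 11.0% of all genes rose and 10.2% fell, with a median log2 fold change of -0.02 against 0.02 for all genes tested. With tributyrin against mock 2 rose and 1 fell (15.6% and 7.54% of all genes), with a median of 0.00 against 0.05. With ampicillin and tributyrin against vehicle 2 rose and 3 fell (19.1% and 9.21% of all genes), with a median of -0.16 against 0.08.

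Nqo1, a quinone reductase that is also a target of NRF2, had 106, 107 and 93.4 TPM with ampicillin and tributyrin, 86.4, 89.2 and 76.2 TPM with ampicillin and mock, and 142, 141 and 122 TPM with vehicle. The 3 groups did not overlap, with the vehicle libraries highest and the ampicillin with mock libraries lowest. It fell with ampicillin against vehicle by 0.68 on the log2 scale (SE 0.087, limma adjusted p = 0.00102). With tributyrin against mock it was higher by 0.28 (limma adjusted p = 0.0477), a call that held in only 2 of 9 fits with 1 library left out.

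Ugt1a6a, a glucuronosyltransferase, had 99.3, 104 and 111 TPM with ampicillin and tributyrin, 76.7, 83.1 and 81.7 TPM with ampicillin and mock, and 129, 134 and 149 TPM with vehicle. These groups were ordered like those of Nqo1, again without overlap. It fell with ampicillin against vehicle by 0.76 on the log2 scale (SE 0.067, limma adjusted p = 0.000154) and rose with tributyrin against mock by 0.38 (SE 0.067, limma adjusted p = 0.00560). It shares its last exons with the other Ugt1a genes, so the division of reads among them is uncertain.

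Gsta1, a glutathione transferase, went the other way, with 58.6, 57.6 and 58.6 TPM with ampicillin and tributyrin, 61.8, 73.8 and 81.1 TPM with ampicillin and mock, and 19.3, 31.3 and 16.1 TPM with vehicle. The vehicle libraries lay below all others. It rose with ampicillin against vehicle (log2 fold change 1.70, SE 0.21, limma adjusted p = 0.000787). Near-identical Gsta copies may share its reads, which was not tested. Xdh, the xanthine dehydrogenase, averaged 13.1 ± 1.44 TPM with ampicillin and tributyrin and 18.2 ± 0.437 TPM with ampicillin and mock (SD, n = 3 each), a fall of 0.45 on the log2 scale (limma adjusted p = 0.00442). Against vehicle, at 14.9 ± 0.695 TPM, ampicillin with mock was higher by 0.27 (limma adjusted p = 0.0334, held in 4 of 9 fits with 1 library left out). Nfe2l2, which encodes NRF2, rose with ampicillin and tributyrin against vehicle (196 ± 15.3 and 162 ± 5.89 TPM, SD, n = 3 each; log2 fold change 0.27, limma adjusted p = 0.0112). The cyclin gene Ccng2 fell in the same comparison (39.4 ± 2.73 and 49.9 ± 2.93 TPM, SD, n = 3 each; log2 fold change -0.34, limma adjusted p = 0.0222), a call that held in 6 of 9 fits with 1 library left out. Cyp2s1, a further inducible monooxygenase, averaged 64.3 ± 4.04, 58.4 ± 1.54 and 57.3 ± 6.63 TPM with tributyrin, mock and vehicle (SD, n = 3 each) and passed in no comparison.

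**Figure D4:**
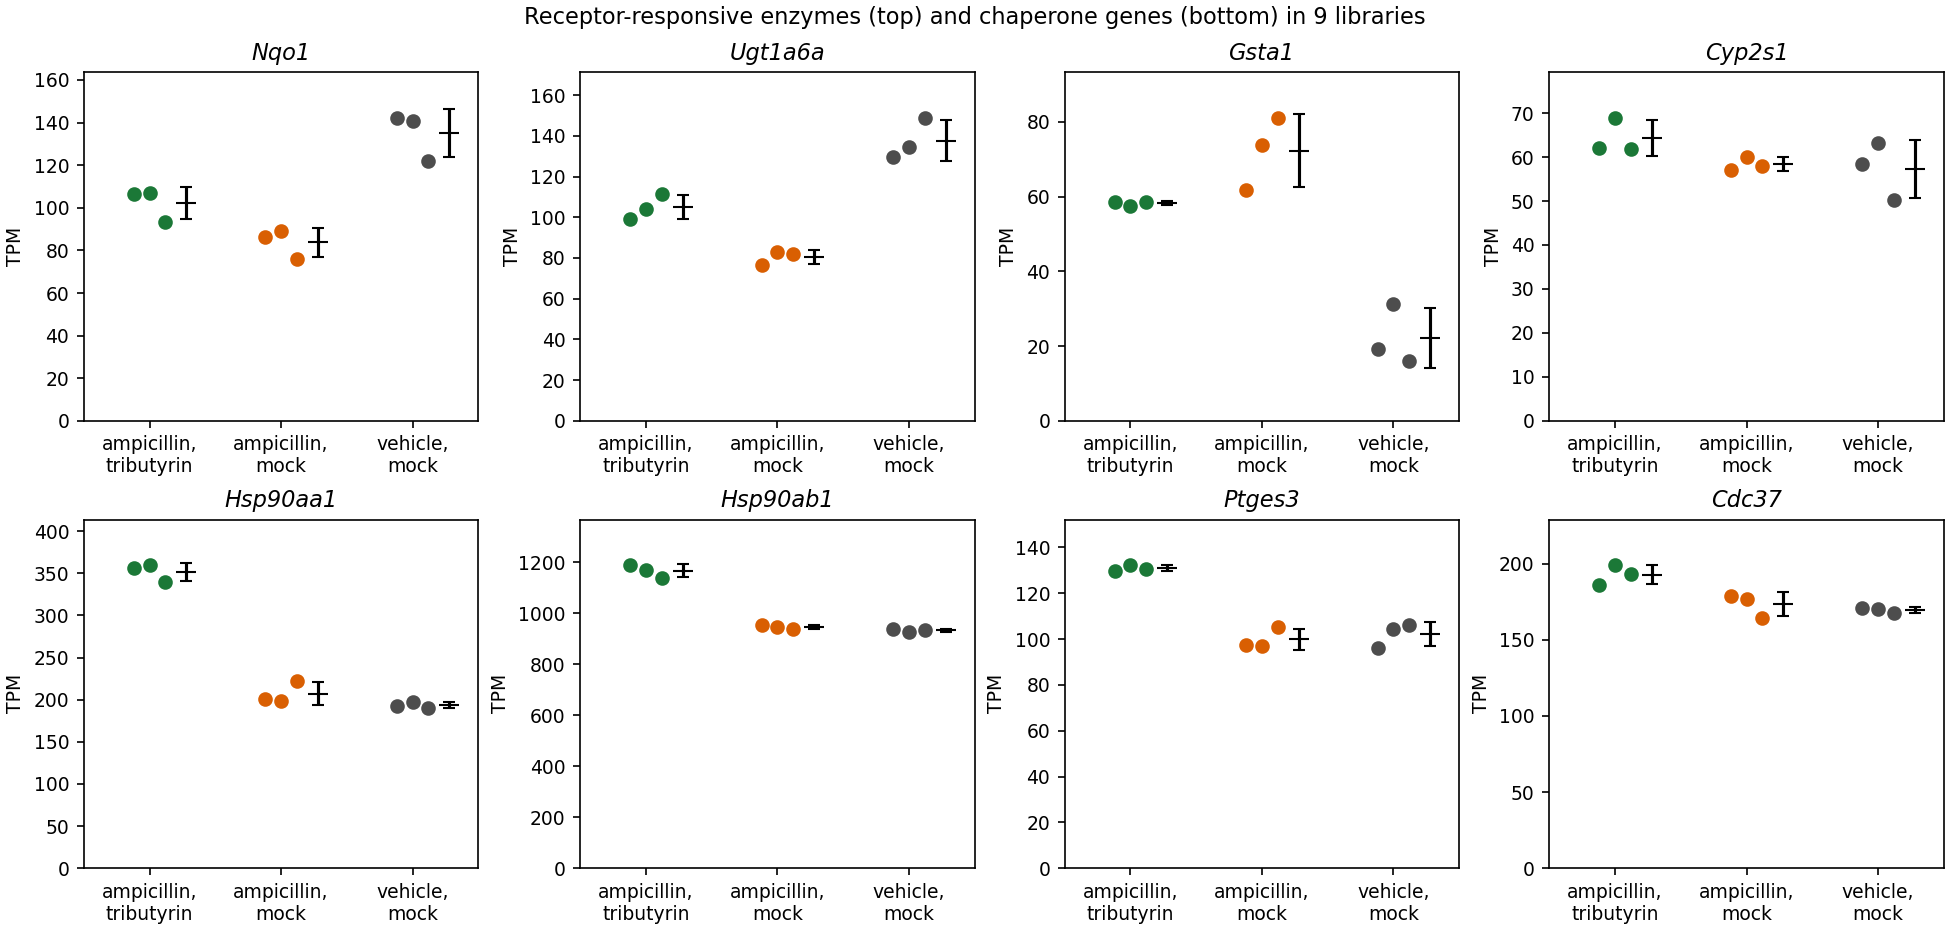
TPM in each of the 9 libraries of 4 inducible enzymes (top) and 4 chaperone genes (bottom), groups from left to right ampicillin with tributyrin, ampicillin with mock, and vehicle with mock; points are libraries and bars are mean ± SD (n = 3). Nqo1 and Ugt1a6a are lower in both ampicillin groups than in vehicle and Gsta1 is higher, while Hsp90aa1, Hsp90ab1 and Ptges3 are high in the tributyrin libraries.

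Among the other bHLH-PAS factors, the family of the receptor, 8 of 16 listed genes were tested. With ampicillin against vehicle 0 passed in limma, against 21.3% of all genes, and 2 had an unadjusted p under 0.05, against 34.0% of all genes. With tributyrin against mock 2 rose and 1 fell, where 15.6% of all genes rose and 7.54% fell. Arntl, the circadian activator BMAL1, averaged 21.7 ± 1.83 TPM with tributyrin and 13.7 ± 1.14 TPM with mock (SD, n = 3 each; log2 fold change 0.62, limma adjusted p = 0.0205). Npas2, a circadian partner of BMAL1, rose by 0.49 on the log2 scale (limma adjusted p = 0.0452), and Epas1, the hypoxia factor HIF-2alpha, fell by 0.30 (limma adjusted p = 0.0165). With ampicillin and tributyrin against vehicle Arntl (log2 fold change 0.95, limma adjusted p = 0.00307) and the coactivator Ncoa3 (log2 fold change 0.33, limma adjusted p = 0.0198) rose, where 19.1% of all genes did. The calls of Arntl for tributyrin and of Ncoa3 each held in 5 of 9 fits with 1 library left out, and that of Npas2 in 3. Hif1a, which competes with the receptor for ARNT, averaged 26.6 ± 1.07, 26.6 ± 2.48 and 22.0 ± 3.43 TPM with tributyrin, mock and vehicle (SD, n = 3 each) and was not called.

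Arnt2, a relative of Arnt that can also pair with the receptor, was singled out after its values were seen. It had 1.30, 1.23 and 0.951 TPM with ampicillin and tributyrin, 1.12, 1.08 and 1.23 TPM with ampicillin and mock, and 0.373, 0.507 and 0.293 TPM with vehicle. All 6 ampicillin libraries lay above the 3 vehicle libraries. The mean was 2.97-fold that of vehicle with ampicillin and tributyrin and 2.93-fold with ampicillin and mock. Its mean over the 9 libraries, 0.898 TPM, was under the filter, and as it was picked for these values they are given with no test.

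A further list covered tryptophan handling, whose genes make or use up ligands of the receptor. Of 21 listed genes 9 were tested. With ampicillin against vehicle 0 were called higher and 1 lower (11.0% and 10.2% of all genes). With tributyrin against mock 1 was called higher and 0 lower (15.6% and 7.54% of all genes). With both treatments against vehicle 1 was called higher and 0 lower (19.1% and 9.21% of all genes). Tph1, which opens serotonin synthesis in enterochromaffin cells, averaged 2.60 ± 0.523 TPM with tributyrin and 1.01 ± 0.254 TPM with mock (SD, n = 3 each), a rise of 0.84 on the log2 scale (SE 0.14, limma adjusted p = 0.00405). Vehicle lay between them at 1.72 ± 0.147 TPM, from which ampicillin with mock was called lower by a narrow margin (log2 fold change -0.44, limma adjusted p = 0.0499, held in 2 of 9 fits with 1 library left out). Slc3a2, a subunit of amino acid transporters, was called higher with ampicillin and tributyrin than with vehicle (log2 fold change 0.39, limma adjusted p = 0.0418, held in 2 of 9 such fits). Ido1, which opens the kynurenine route, was under the filter, at 0.0751 TPM with tributyrin, 0.0814 TPM with mock and 0.358 TPM with vehicle on average.

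In the IL-22 axis, which the receptor is known to drive through lymphocytes, 9 of 11 listed genes were tested. Il22 itself was listed at 0 in 7 libraries, at 0.0390 TPM in the first ampicillin with mock library and at 0.115 TPM in the third vehicle library. Il22ra1, the epithelial receptor chain, averaged 6.78 TPM with tributyrin, 8.02 TPM with mock and 8.03 TPM with vehicle and was not called. With ampicillin against vehicle 1 gene of the axis rose and 3 fell (11.0% and 10.2% of all genes). Socs3, a feedback inhibitor of STAT3, rose (6.33 ± 1.12 TPM with ampicillin and mock and 3.26 ± 0.459 TPM with vehicle, SD, n = 3 each; log2 fold change 0.78, limma adjusted p = 0.00238). Fut2, the fucosyltransferase that decorates the epithelial surface, fell by 2.07 on the log2 scale with ampicillin (7.44 ± 0.970 TPM with ampicillin and mock and 34.5 ± 2.55 TPM with vehicle, SD, n = 3 each; limma adjusted p = 1.1e-05). The antimicrobial lectin genes Reg3b and Reg3g fell too, with log2 fold changes of -4.98 and -2.91 (limma adjusted p = 0.00785 and 0.0267), but their vehicle libraries were widely spread. They may share reads, which was not tested. The Reg3g call held in 5 of 9 fits with 1 library left out, here and with both treatments against vehicle. With tributyrin against mock 1 rose and 1 fell (15.6% and 7.54% of all genes). Fut2 rose (log2 fold change 0.85, limma adjusted p = 0.00138) and Il10rb, the shared receptor chain, fell (log2 fold change -0.27, limma adjusted p = 0.0125). With both treatments against vehicle 1 rose and 3 fell (19.1% and 9.21% of all genes), namely Socs3 (0.88) and Fut2 (-1.23), Reg3b (-5.13) and Reg3g (-2.69) on the log2 scale.

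Among the ADP-ribosyltransferases related to Tiparp 12 of 13 listed genes were tested, and with ampicillin against vehicle 0 rose and 3 fell (11.0% and 10.2% of all genes). The genes that fell were Parp9, Parp12 and Parp14, which are known as interferon-stimulated genes, with log2 fold changes of -0.50, -0.39 and -0.46 (limma adjusted p = 0.0110, 0.00763 and 0.0263). The Parp14 call held in 5 of 9 fits with 1 library left out and was lost with the replicate number as a block. The median of the 12 was 0.04, and the uncalled genes lay on both sides of 0. Parp2, Parp3 and Parp4 lay on the same side as Tiparp, at 0.12, 0.64 and 0.35, as did Parp16, while Parp1 lay on the other. With ampicillin and tributyrin against vehicle 2 rose and 2 fell (19.1% and 9.21% of all genes). Parp3, a DNA repair enzyme, averaged 37.6 ± 8.69 TPM with ampicillin and tributyrin and 10.9 ± 7.26 TPM with vehicle (SD, n = 3 each; log2 fold change 1.84, limma adjusted p = 0.00720), and Parp2 rose by 0.26 (limma adjusted p = 0.0115). Parp12 fell by 0.53 and Parp14 by 0.46 on the log2 scale, and the Parp14 call again held in 5 of 9 fits with 1 library left out. With tributyrin against mock, where 15.6% of all genes rose and 7.54% fell, Parp3 was called higher (log2 fold change 1.20, limma adjusted p = 0.0434) and Parp4 lower (log2 fold change -0.40, limma adjusted p = 0.0428), and each call held in 2 of 9 fits with 1 library left out.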

How the data were processed

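The authors deposited 1 TPM value for each gene in each library. The submitters' processing notes list the build mm10, DESeq2 1.20.0 and Salmon 0.8.2 without saying what each was used for, and annotation and strandedness were not given in the sources used here. TPM keeps no depth, so the depth per library is unknown, no counting interval could be given, and precision rests on the 3 libraries of a group. Being relative, TPM drops for other genes when some rise. Groups came from the sample titles. Of 24091 gene IDs, 24045 matched a RefSeq table of GRCm38.p6, and 5 of the 6 members matched its promoter table.

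Genes with a mean of at least 1 TPM over the 9 libraries (12155) were fitted in limma 3.58.1 under R 4.3.3 on log2(TPM + 1), with 1 mean per group, a variance trend, 6 residual degrees of freedom and no replicate block, after the script was tested on simulated data. Two-sided p-values were adjusted by Benjamini-Hochberg, with calls at 0.05. Members under the filter had an exact two-sided permutation test in scipy 1.17.1. Figures used matplotlib 3.10.9 under Python 3.11.15. Alternatives changed the pseudocount, filter, scaling, variance model, block and libraries used.

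The members, the pathway lists and the markers were chosen with earlier results of these data known. Named were all members, up to 4 called genes per list and comparison by size of change, a fixed set of list genes wherever they stood (Hsp90aa1, Hsp90ab1, Hif1a, Ido1, Il22, Il22ra1, Nqo1 and Cyp1a2), and the 3 tested genes most correlated with each tested member, leaving out predicted genes and short RNA. Marker genes were named where they moved with a result. Cyp2s1, Nfe2l2 and Arnt2 fall outside this rule and were named after their values were seen. A further listed gene is not reported here.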

Additional observations from a re-analysis of the deposited data

How the results depend on the processing

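Neither Ahr, Arnt nor Tiparp changed the direction of a call under any alternative, but Ahr and Tiparp crossed the threshold in several. With ampicillin against vehicle, the count of members called was 2 under quantile normalization, 2 with array weights, 1 with no variance trend and 1 with the replicate number as a block, and 0 to 1 with 1 library left out (1 without the second vehicle library). The log2 fold change of Ahr was then 0.22, 0.24 and 0.23 under the first 3 of these (adjusted p = 0.0359, 0.0317 and 0.0488). That of Tiparp was 0.25 and 0.34 under the first 2 and 0.27 with the replicate block (adjusted p = 0.0440, 0.0118 and 0.0398), and 0.19 to 0.35 with 1 library left out (0.35, adjusted p = 0.0204, without the second vehicle library).

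With ampicillin and tributyrin against vehicle, the count of members called was 0 with a filter of at least 5 TPM (Ahr was then not tested), 0 under quantile normalization, 1 after rescaling without Mir6236, 1 in a fit of only the 6 libraries compared, 1 with the replicate block and no filter, and 0 to 2 with 1 library left out. The log2 fold change of Ahr was 0.18 under quantile normalization (adjusted p = 0.0626) and 0.30 with the replicate block and no filter (adjusted p = 0.0660). With 1 library left out it was 0.25 to 0.34, and the call was lost without vehicle library 1 or 3 or the second tributyrin library (adjusted p = 0.0535, 0.0700 and 0.0763). Tiparp was at 0.29 with no filter, with the filter of 5, in the 6 libraries alone and with the block and no filter (adjusted p = 0.0716, 0.0534, 0.0918 and 0.0585), at 0.17 under quantile normalization and at 0.26 after rescaling (adjusted p = 0.122 and 0.0658). With 1 library left out it was 0.20 to 0.37, and the call held only without vehicle library 2 or tributyrin library 3. Ahrr was called at 0.20 with no filter (adjusted p = 0.0256) and at 0.20 with the replicate block and no filter (adjusted p = 0.0185).

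With tributyrin against mock, 1 member, Ahrr, was called with the replicate block and no filter (0.14, adjusted p = 0.0482), a setting added after the data were seen. Under quantile normalization Ahr and Tiparp were at -0.04 and -0.08, uncalled. The genes called, 2819 in the reported fit, were 4271 with array weights and 1574 to 2962 with 1 library left out (1574 without the second tributyrin library, 1659 and 1749 without the second and first ampicillin with mock libraries). With ampicillin and tributyrin against vehicle they were 2061 to 3766, against 3444, with 2061 without the second tributyrin library. Whether the replicate numbers pair the libraries is not known. Deviations of same-numbered libraries correlated at -0.0498 to 0.108 over 9 pairs, against -0.117 to 0.0748 over 18 pairs of unlike number. For 6 of 9 libraries the best correlate in another group shared the number. These matches depend on one another, and the count to be had without pairing was not computed. Of 48 called results on the pathway lists, 29 held in all alternatives and 19 were lost in at least 1, and none reversed. The cause of these shifts was not tested. Unknown depth limits what can be said of Ahrr, Cyp1a1 and Cyp1b1.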

Other observations

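Ugt1a6a belongs to a cluster whose genes share their last exons, and the other genes of the cluster were looked up after its values were seen. Ugt1a1, the bilirubin glucuronosyltransferase, had 121, 116 and 125 TPM with ampicillin and tributyrin, 132, 141 and 143 TPM with ampicillin and mock, and 81.8, 74.4 and 92.3 TPM with vehicle. It rose with ampicillin against vehicle (log2 fold change 0.74 ± 0.077 SE, limma adjusted p = 0.000363), where Ugt1a6a fell by 0.76 on the log2 scale. Ugt1a7c, with the highest level of the cluster, averaged 432 ± 11.0 TPM with ampicillin and tributyrin, 395 ± 11.2 TPM with ampicillin and mock, and 396 ± 11.0 TPM with vehicle (SD, n = 3 each) and passed in no comparison. Ugt1a2, Ugt1a5, Ugt1a9 and Ugt1a10 each averaged under 1 TPM. Of these, Ugt1a9 averaged 0.340, 0.212 and 0.353 TPM with tributyrin, mock and vehicle. In that order Ugt1a5 averaged 0.955, 0.861 and 1.18 TPM, and Ugt1a2 0.774, 0.738 and 0.842 TPM. The means of Ugt1a9, Ugt1a5 and Ugt1a2 were ordered like those of Ugt1a6a, but the groups overlapped, except mock and vehicle for Ugt1a9. Ugt1a10 was ordered otherwise, at 0.0356 TPM with tributyrin, 0.0124 TPM with mock and 0.0225 TPM with vehicle on average. The division of reads within the cluster was not tested.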
